A study of Mus musculus with 15 samples.

Results

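The genes *Calr*, *Hspa5*, *Hsp90b1*, *Pdia3* and *Canx* encode chaperones of the endoplasmic reticulum. Counts over their regions, labelled as ATAC-seq, were compared across 5 lines of the mouse mammary tumor cell line 6DT1. The 5 genes were selected by their summed counts in the EV, OE, Scr, KD4 and KD6 libraries, with those values known, so the gene sums below are a description and carry no test. A region belonged to a gene if it overlapped a fixed window of the mouse build mm39 that holds the gene, of 8.0 kb for *Calr*, 7.0 kb for *Hspa5*, 18.0 kb for *Hsp90b1*, 27.5 kb for *Pdia3* and 34.5 kb for *Canx*. Of 44598 regions in the KD table, 18 were members, with 2 each in *Calr*, *Hspa5* and *Hsp90b1*, 3 in *Pdia3* and 9 in *Canx*. Of 38036 regions in the OE table, 19 were members, with 1 more in *Hsp90b1*. There were 14 regions in both tables, matched at a reciprocal overlap of at least 50%. Both tables count the same 15 libraries, so a like value in the second table is not a replication of the first.

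The assay is given as ATAC-seq, in which a transposase inserts sequencing adapters into accessible DNA, in 15 monolayer libraries, 3 per line. The protocol in the labels is for RNA, so which reads gave the counts could not be settled. Levels below are thus counts over listed regions, and whether they measure accessibility was not tested. The OE line carried a lentiviral mouse *Smarcd1* cDNA under a pol2 promoter with a C-terminal Myc tag, and EV was its empty vector control, both kept in blasticidin. KD4 and KD6 carried lentiviral shRNAs against *Smarcd1*, a subunit of the SWI/SNF chromatin remodeler, and Scr carried a scrambled shRNA, all 3 kept in puromycin. All lines were otherwise wildtype and untreated according to the labels. They were selected populations whose clonality is not stated. Scr and EV therefore differed in vector and drug. These cannot be told apart in any difference between the shRNA lines (Scr, KD4 and KD6) and the cDNA lines (EV and OE). In the labels all cDNA-line libraries are numbered before all shRNA-line libraries, so sample order cannot be told apart either. The labels describe seeding from a different passage for each replicate, but within a protocol for RNA, so the spread between libraries may be technical.

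Totals ranged from 16176521 to 23703741 counts per library (KD table) and from 22668624 to 31225937 (OE table). The member regions held 0.151% to 0.163% of the counts of a cDNA-line library and 0.252% to 0.303% of those of an shRNA-line library in the KD table. Mitochondrial regions moved the other way, from 3.82% to 4.58% in the cDNA lines and from 3.16% to 3.87% in the shRNA lines, and their part in the results below was not tested. Levels are given as CPM, the count in a region per 1000000 counts of the library, with library totals scaled by TMM over the 15 libraries of a table. The 4 regions called between OE and EV all lay in chr15:99600214-99610513 and summed to 59.5, 59.0 and 51.5 CPM in OE and 25.7, 22.6 and 20.4 in EV. They summed to 10.2, 10.6 and 8.80 CPM in Scr, 6.30, 6.48 and 8.21 in KD4 and 11.3, 11.6 and 11.1 in KD6, so KD6 did not lie below Scr. No mm39 annotation was used, so this interval was not assigned to a gene and *Smarcd1* itself was not checked against the labels.

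The endoplasmic reticulum folds secreted and membrane proteins. *Hspa5* encodes BiP, which binds unfolded chains and holds the stress sensors of this compartment inactive, and *Hsp90b1* encodes GRP94, its resident HSP90. *Canx* and *Calr* encode calnexin and calreticulin, the membrane-bound and soluble lectins that hold glycoproteins while they fold, and *Pdia3* encodes ERp57, the disulfide isomerase that works with both lectins. Many genes of this group are induced together when unfolded proteins accumulate, through the ER stress response element (ERSE), at which NF-Y binds the CCAAT end and ATF6 the CCACG end.

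The promoter stretches are shown because 4 of the 5 genes hold this element and the other, *Pdia3*, holds a near match. The ERSE was searched as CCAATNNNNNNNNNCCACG on both strands of the 250 bases before each start site in RefSeq promoters of the build GRCm38.p6. All 5 genes matched a promoter. The element was found in those 4, against 37 of 32851 promoters (0.113%) and 35 of 27025 genes (0.13%). These totals include the 4 genes. The element was searched because it is known for this group of genes, so its presence in them is a description and not a test. The sequences below are in the direction of transcription, with the outer 5 bases at each end of the element in capitals. On the reverse strand the element reads CGTGG to ATTGG.
*Calr*, chr8:84847063-84847105, minus strand: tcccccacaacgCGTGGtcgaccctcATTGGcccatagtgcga
*Hspa5*, chr2:34772013-34772055, plus strand: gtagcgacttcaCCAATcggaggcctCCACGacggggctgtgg
*Hsp90b1*, chr10:86705626-86705668, minus strand: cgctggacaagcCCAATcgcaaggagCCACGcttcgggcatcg
*Hsp90b1*, chr10:86705521-86705563, minus strand: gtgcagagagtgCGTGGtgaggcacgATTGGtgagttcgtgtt
*Canx*, chr11:50325788-50325830, minus strand: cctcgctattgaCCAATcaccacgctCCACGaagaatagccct
*Pdia3*, chr2:121413861-121413901, plus strand: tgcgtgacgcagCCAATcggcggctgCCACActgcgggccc
The *Pdia3* promoter held no full match, and the stretch printed for it differs from the element at 1 base. It was the closest stretch with an exact CCAAT end. The share of all promoters with such a near match was not computed, so nothing is read from it.

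The second form of the element, ATTGGNCCACG, was in 10 promoters (0.0304%) and in 0 of the 5 genes. CCAAT alone was in 33.8% of promoters and in all 5 genes, with 2 matches in *Calr*, 4 in *Hspa5*, 5 in *Hsp90b1*, 2 in *Pdia3* and 3 in *Canx*, and these counts include the matches inside the ERSE. Among 32 other genes of folding and stress in this compartment with a promoter, of 40 listed, 4 held the ERSE (12.5%), namely *Pdia6*, *Dnajc3*, *Creld2* and *Syvn1*. It was in 0 of 17 promoters of cytosolic and mitochondrial chaperones and in 0 of 15 of other abundantly transcribed genes. The promoters have GRCm38.p6 coordinates and the regions mm39 coordinates, so the elements were not placed relative to the regions.

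For *Calr*, *Hspa5*, *Hsp90b1* and *Pdia3*, each of the 9 shRNA-line libraries had a higher gene sum than each of the 6 cDNA-line libraries, in both tables. *Canx* was the exception, with overlapping sums. The genes were chosen on these sums and the share of all genes with such a separation was not computed. Nothing is therefore read from the separation. The gene sum is the total CPM over the regions of a gene, and ratios are of group means ± SD, n = 3 libraries.

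*Calr*, the soluble lectin, had sums in the KD table of 487, 375 and 350.3 CPM in EV 1 to 3 and 327, 344 and 332 in OE 1 to 3. Its sums were 874, 956 and 857 in Scr, 769, 890.5 and 941 in KD4 and 935, 768 and 831 in KD6. The lowest shRNA-line library was thus above the highest cDNA-line library, EV 1, which stood apart from the other EV libraries. The Scr mean of 896 ± 53.0 was 2.22-fold that of EV, 404 ± 72.7, the highest ratio of the 5 genes, and 2.26-fold in the OE table.

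*Hspa5*, the gene of BiP, had 626, 583 and 563 CPM in EV and 556, 547 and 471 in OE. It had 992, 972 and 901 CPM in Scr, 822, 1005 and 1056 in KD4 and 981, 906 and 959 in KD6. The groups did not overlap across the 2 sets of lines, and the KD4 libraries were the most spread. The Scr mean of 955 ± 47.9 was 1.62-fold that of EV, 590.4 ± 32.2, and 1.48-fold in the OE table.

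*Hsp90b1*, the gene of GRP94, had 234, 256 and 277 CPM in EV and 268, 263 and 276 in OE. It had 612, 437 and 448 CPM in Scr, 402, 419 and 429 in KD4 and 401, 442 and 541 in KD6. Scr 1 and KD6 3 were high within their groups. The Scr mean of 499 ± 97.8 was 1.95-fold that of EV, 256 ± 21.4, and 1.76-fold in the OE table.

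*Pdia3*, the disulfide isomerase gene, had 57.6, 70.7 and 67.0 CPM in EV and 65.8, 66.4 and 58.7 in OE. It had 104, 91.7 and 104 CPM in Scr, 98.0, 96.3 and 93.3 in KD4 and 89.7, 86.2 and 124 in KD6, where KD6 3 was again the highest. The Scr mean of 99.9 ± 7.08 was 1.53-fold that of EV, 65.1 ± 6.76, and 1.40-fold in the OE table.

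*Canx*, the membrane-bound lectin, had 427, 366 and 359.9 CPM in EV and 371, 363 and 326 in OE. It had 426, 413 and 396 CPM in Scr, 374, 396 and 368 in KD4 and 411, 399.5 and 389 in KD6. EV 1 lay above all shRNA-line libraries, and of the other cDNA-line libraries OE 1, at 371, lay above the lowest of them, KD4 3, at 368. The Scr mean of 412 ± 14.7 was 1.07-fold that of EV, 384 ± 37.1, and also 1.07-fold in the OE table.

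**Figure D1:**
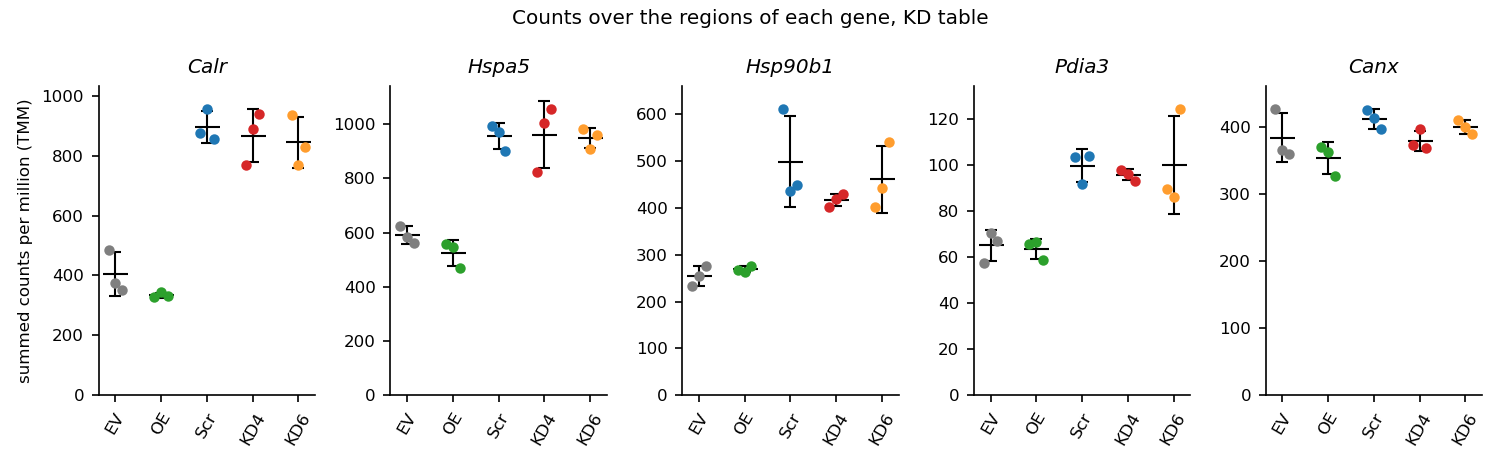
Summed CPM over the regions of each gene in the KD table. Each point is a library, replicates 1 to 3 from left to right in a group, and the black bars are the mean and SD of 3 libraries. The Scr, KD4 and KD6 libraries lie above all EV and OE libraries for every gene but *Canx*.

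Per kilobase of region, the mean level over the 15 libraries in the KD table was 881 CPM for *Hsp90b1*, 817 for *Calr* and 792 for *Hspa5*. *Pdia3* had 139 CPM per kilobase and *Canx* 121. In the OE table it was 764 CPM for *Hsp90b1*, 742 for *Calr* and 602 for *Hspa5*, with 198 for *Canx* and 134 for *Pdia3*. The first 3 genes thus lay well above the others in both tables, and the order of *Pdia3* and *Canx* turned with the regions listed. This scale covers the regions only and not the whole gene.

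For single regions, 10 of the 18 members of the KD table were called higher in Scr than in EV by edgeR's quasi-likelihood test at a Benjamini-Hochberg FDR of 0.05, against 2.19% of all 43819 regions tested, and 0 were called lower. Over the OE table, 7 of 19 were called higher, against 2.41%, and 0 lower. The genes were chosen on this difference among others, so nothing is read from these counts. Without EV 2 the counts were 5 and 2, without Scr 1 they were 5 and 4, and without Scr 3 the first was 6. All members passed the filter on low counts. The median log2 fold change of the members was 0.70 (KD table) and 0.63 (OE table), beside 0.02 in each over all regions. Calls over all regions numbered 958 higher and 963 lower in the KD table, and 1075 and 436 without TMM scaling. In the OE table they numbered 908 and 1105, and 1560 and 462 without it, when the median of all regions moved to 0.12 and 0.13.

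Taking all 15 libraries, 6 of 18 members of the KD table had every shRNA-line library above every cDNA-line library, against 0.995% of regions. These were the upstream *Calr* region, both regions of *Hspa5*, both of *Hsp90b1* and the region of *Pdia3* with the most counts. Over the OE table, 11 of 19 did so, against 0.766%. In neither table was a member lower in all 9. This division of the libraries was added after the data were seen. The genes were chosen on their sums in these same libraries, so nothing is read from these counts.

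**Figure D2:**
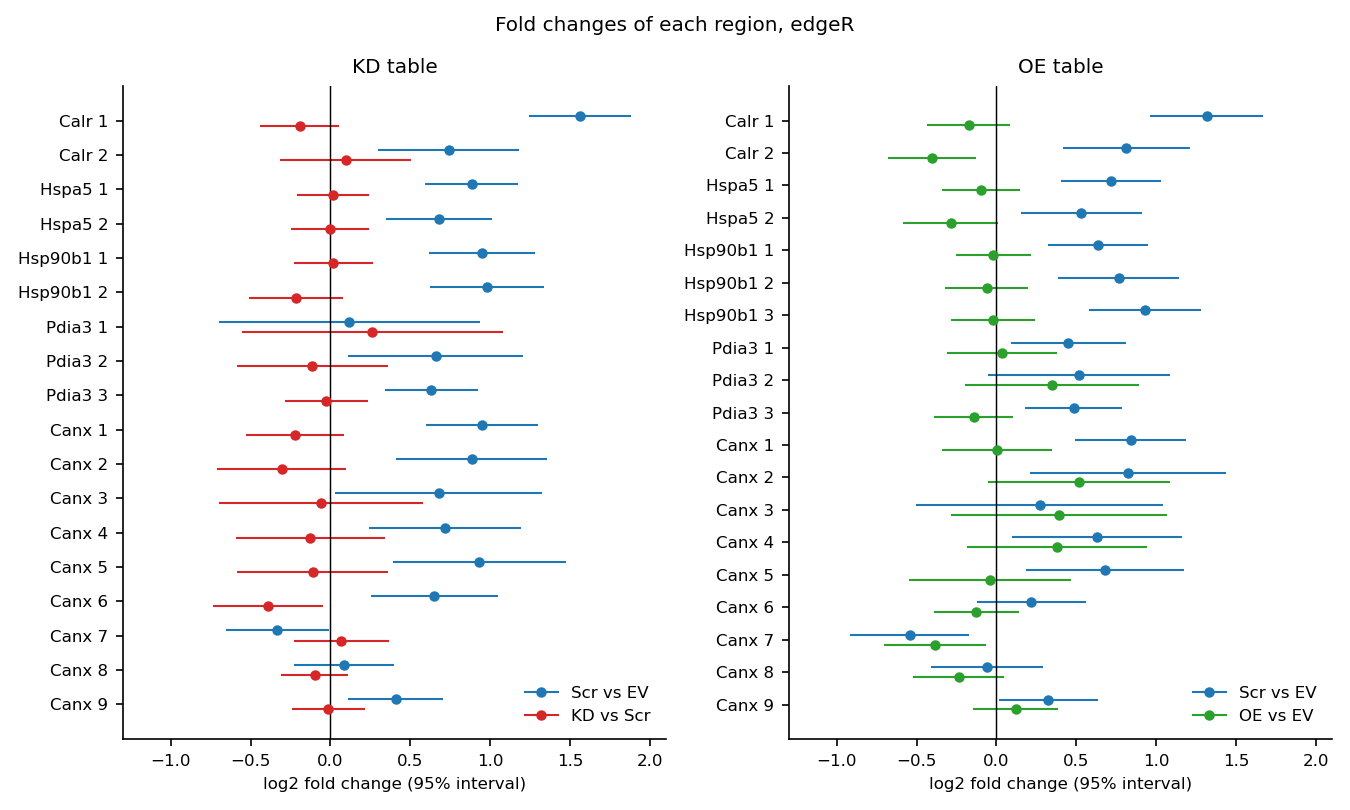
Log2 fold change of each member region with its 95% interval from edgeR. Regions are numbered within a gene in the direction of transcription, and rows with the same number need not be the same region in both tables. For Scr against EV, 17 of 18 regions in the KD table are above 0, and for KD against Scr the points lie on both sides of 0.

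The regions of a gene did not all share 1 ratio. The windows were read in the direction of transcription, since no mm39 annotation of exons or start sites was used, and a position is given as a percentage of the window from its upstream edge. The 2 regions of *Calr*, at 47.6% and 73.6%, differed most among genes with 2 regions. The upstream region, chr8:85571037-85571352, had 174, 185 and 178 CPM in EV and 165, 169 and 189 in OE. It had 559, 467 and 547 CPM in Scr, 481.5, 439.5 and 454 in KD4 and 425, 407 and 543 in KD6. Its shRNA-line libraries were thus at least at 407 CPM and its cDNA-line libraries at most at 189. The Scr mean was 2.93-fold that of EV (log2 fold change 1.56, SE 0.155).

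The downstream *Calr* region, chr8:85568859-85569361, had 313, 190.2 and 172 CPM in EV and 162, 175 and 143 in OE. It had 316, 489.7 and 309.8 CPM in Scr, 287, 451 and 487 in KD4 and 510.3, 361 and 288 in KD6. EV 1 lay within the range of the shRNA-line libraries. The Scr mean was 1.65-fold that of EV (log2 fold change 0.74, SE 0.212). The ratio of the downstream to the upstream region ranged from 0.530 in KD6 3 to 1.80 in EV 1. It was 1.80, 1.03 and 0.964 in EV, 0.981, 1.04 and 0.757 in OE, 0.565, 1.05 and 0.566 in Scr, 0.596, 1.03 and 1.07 in KD4 and 1.20, 0.886 and 0.530 in KD6, with the least spread in OE. The narrower downstream region of the OE table gave ratios from 0.255 to 0.537.

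**Figure D3:**
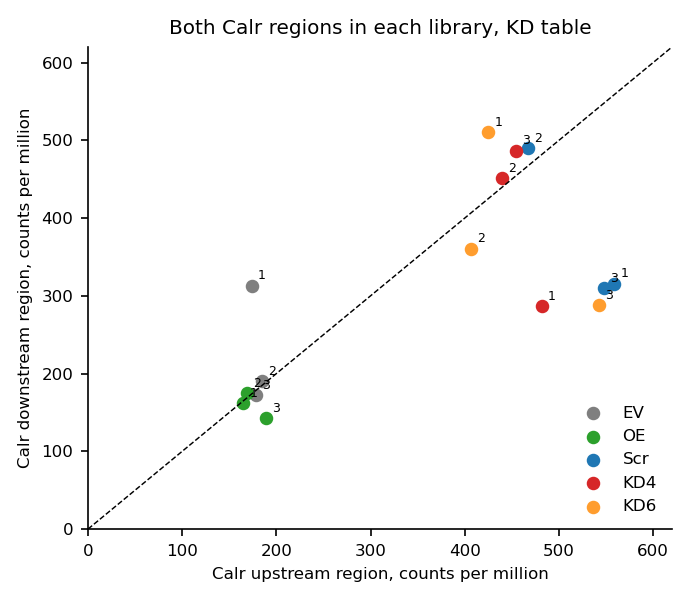
CPM of both *Calr* regions in each library of the KD table, with the replicate number beside each point and a dashed line where both are equal. The shRNA-line libraries lie at 407 or more on the horizontal axis, and their downstream values spread from 287 to 510.3.

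*Hspa5* had regions at 53.5% and 78.3% of its window, and the downstream one, chr2:34665643-34666324, held 86.5% of the CPM of the gene. The log2 fold change of Scr over EV was 0.88 (SE 0.141) upstream and 0.68 (SE 0.159) downstream. *Hsp90b1* had regions at 29.3% and 47.8%, with 87.7% of the CPM in the second, chr10:86534256-86534528, and log2 fold changes of 0.95 (SE 0.16) and 0.98 (SE 0.172). The *Hsp90b1* region found in the OE table alone, at 70.6%, held 32.6% of the CPM of the gene there and had a log2 fold change of 0.93. In *Pdia3*, the region at 91.8%, chr2:121268145-121268323, held 96.3% of the CPM, with a log2 fold change of 0.63 (SE 0.14). The first *Pdia3* region of the KD table had between 4 and 20 counts per library, and its 95% interval ran from -0.70 to 0.93.

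*Canx* was the gene in which the regions split by position. In the KD table, its 3 regions at the downstream end of the window, at 90.2% to 94.3%, held 93.0% of the CPM and its 6 upstream regions 7.0%. This split was made after the values were seen and is a description. The sum of the 6 upstream regions was 19.8, 17.3 and 21.6 CPM in EV, 20.9, 18.2 and 25.8 in OE, and 34.5, 31.6 and 38.1 in Scr. It was 28.2, 28.9 and 29.6 in KD4 and 22.9, 31.8 and 36.3 in KD6. KD6 1 lay within the range of the cDNA lines and the other shRNA-line libraries above it. The Scr mean of 34.7 ± 3.28 was 1.77-fold that of EV, 19.6 ± 2.15. At the downstream end, Scr had 377 ± 16.9 and EV 365 ± 37.2 CPM, a ratio of 1.03. In the OE table the ratio was 1.70 over 5 upstream regions and 1.05 over 4 regions of the downstream end.

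All 6 upstream *Canx* regions had a positive log2 fold change, from 0.65 to 0.95. The 3 of them called higher in Scr were chr11:50215543-50215835 (0.95), chr11:50211865-50212360 (0.88) and chr11:50206955-50207260 (0.93), and the first was also called in the OE table (0.84). At the downstream end, the fold changes were -0.33 (95% interval -0.66 to -0.01) at chr11:50186697-50187080, 0.09 (-0.23 to 0.40) at chr11:50185906-50186536, the region with the most counts, and 0.41 (0.11 to 0.70) at chr11:50185346-50185601. The OE table had a negative value, -0.54, at the same place as the first of these. The *Canx* region with the most counts there, chr11:50187886-50188146, was listed in that table alone, held 48.5% of the CPM of the gene and had a log2 fold change of 0.22 (-0.12 to 0.56). The sum over *Canx* was set by the downstream end, where the fold changes had both signs.

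**Figure D4:**
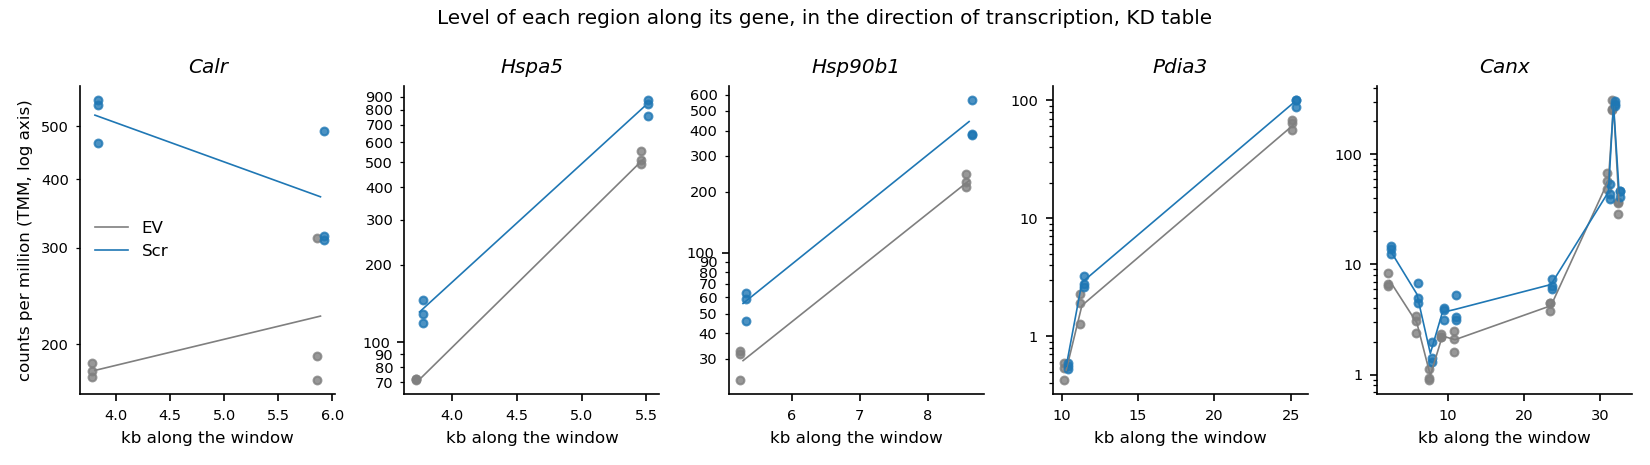
CPM (log axis) of each region in the EV and Scr libraries of the KD table, by distance in kilobases from the upstream edge of the window of its gene in the direction of transcription. Points are libraries, shifted slightly left (EV) and right (Scr), and lines join group means. EV and Scr points are apart at every region of *Hspa5* and *Hsp90b1* and overlap at the downstream region of *Calr*, at the first region of *Pdia3* and at 2 of the last 3 regions of *Canx*.

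Knockdown was compared with its own control. Of the 18 members in the KD table, 0 were called in KD4 and KD6 against Scr, beside 0.271% of all regions (120 of 44289). DESeq2 also called 0. By edgeR's quasi-likelihood test 1 member had an unadjusted p under 0.05, beside 3653 of all 44289 regions, so nothing is read from it. That member was the *Canx* region chr11:50194302-50194600, with a log2 fold change of -0.39 (95% interval -0.73 to -0.05) and an edgeR adjusted p of 0.526. It had 6.43, 5.99 and 7.32 CPM in Scr, 4.79, 4.68 and 5.29 in KD4 and 3.89, 5.94 and 5.55 in KD6, so the KD libraries were all below the Scr libraries. The share of all regions with such a separation was not computed. The median over the members was -0.08, beside -0.01 over all regions, and 5 of 18 were positive. Over the regions of the OE table this direction turned, with a median of 0.04 beside -0.02 and 10 of 19 positive. By edgeR 0 of these 19 had an unadjusted p under 0.05, beside 3734 of all 37868 regions.

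At the regions with the most counts, the intervals bounded the difference between KD and Scr. At the *Hspa5* region from 34665643 the log2 fold change was 0.00 (95% interval -0.24 to 0.24), and at the upstream *Calr* region it was -0.19 (-0.44 to 0.05). It was -0.21 (-0.51 to 0.08) at the *Hsp90b1* region from 86534256, -0.03 (-0.29 to 0.23) at the *Pdia3* region from 121268145 and -0.10 (-0.31 to 0.11) at the *Canx* region from 50185906. In gene sums, KD4 was 0.967-fold and KD6 0.943-fold Scr for *Calr*. For *Hsp90b1*, KD4 was 0.836-fold Scr without overlap of the libraries in the KD table, and 0.902-fold with overlap in the OE table. For *Canx*, KD4 was 0.921-fold Scr, also without overlap in the KD table (at most 396.2 CPM in KD4 and at least 396.4 in Scr). It was 0.969-fold with overlap in the OE table. The share of all genes without overlap was not computed, so nothing is read from these separations.

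The lines KD4 and KD6 were compared with each other in the same fit, and 0 of the 18 members were called, beside 0.224% of all regions. By edgeR 0 members had an unadjusted p under 0.05, beside 2820 of all 44289 regions. The lowest edgeR adjusted p was 0.998, and DESeq2 called 0. Fold changes ran from -0.21 to 0.29 on the log2 scale.

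OE was compared with EV in the OE table, where 0 of 19 members were called, beside 0.0106% of all regions (4 of 37765). By edgeR 2 of the 19 members had an unadjusted p under 0.05, beside 3237 of all 37765 regions. By DESeq2 3 members did, beside 2455 of all regions, and 0 were called. Nothing is read from these counts, and the 2 members by edgeR are described only. The first was the downstream *Calr* region chr8:85569020-85569233. Its log2 fold change was -0.40 (95% interval -0.68 to -0.13), with an edgeR adjusted p of 0.569. It had 98.8, 80.8 and 71.9 CPM in EV and 64.4, 67.1 and 55.9 in OE, without overlap. The other was the *Canx* region chr11:50186708-50187048, at -0.38 (-0.70 to -0.07) with an edgeR adjusted p of 0.569. It had 44.8, 35.8 and 28.9 CPM in EV and 29.6, 30.9 and 22.1 in OE, and the groups overlapped.

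The median fold change of the members in OE against EV was -0.04, beside 0.02 over all regions. Without TMM scaling it was 0.06, beside 0.12, so its sign depended on the scaling. With the KD table in place of the OE table, the median was 0.04, beside 0.00 over all regions, with 10 of 18 positive, so its place below that of all regions also turned with the regions listed. The gene sums of *Calr* and *Hspa5* were lower in every OE library than in every EV library in both tables, at 0.827-fold and 0.889-fold in the KD table and 0.832-fold and 0.823-fold in the OE table. For *Calr* in the KD table, the log2 ratio of -0.27 became -0.12 without EV 1 and -0.04 with the regions shared by both tables only, and the upstream region overlapped, at 165 to 189 CPM in OE and 174 to 185 in EV. *Hsp90b1* was 1.05-fold with overlap in the KD table and 0.958-fold without overlap in the OE table, so its direction depended on the regions listed. *Pdia3* overlapped in both tables, at 0.978-fold and 0.935-fold, and its log2 ratio ran from -0.11 to 0.04 over the alternative settings. *Canx* was 0.920-fold with overlap in the KD table and 0.879-fold without overlap in the OE table. The share of all genes or regions without overlap between OE and EV was not computed, so nothing is read from these separations.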

How the data were processed

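The assay is given as ATAC-seq, on 15 libraries, and groups and replicate numbers came from the sample titles. The authors' methods state alignment to mm39 by Bowtie2 and peaks from MACS, within Partek Flow. STAR 2.7.8a appears in the notes of the submitters on processing, and the protocol in the labels is for RNA, so which reads and aligner gave the counts could not be settled. The authors deposited expected counts for each region without normalization, of which 95.1% (KD table) and 95.0% (OE table) were whole. They were rounded, although the design had assumed whole counts. For the merging of peaks, no method is given in these sources. A further 15 columns per table matched no sample and were not used.

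Tests across regions used edgeR 4.0.16 under R 4.3.3 (quasi-likelihood, TMM, filterByExpr, Benjamini-Hochberg FDR of 0.05 over all regions), with DESeq2 1.42.0 as an alternative. KD against Scr used the mean of KD4 and KD6 in a fit of 3 groups, KD6 against KD4 used the same fit, and the other comparisons used their 2 groups. The procedure was tested on simulated data. Tables and sums were made in Python 3.11.15 with pandas 2.3.3 and scipy 1.17.1. Alternatives were other scalings, DESeq2, no filter, a replicate block, each library left out, all 15 libraries in 1 fit, no mitochondrial or 20 largest regions, and the regions of the other table. The last was added for the gene sums after the data were seen.

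The members and lists were chosen with earlier results of these data known. The regions named were each member called in a comparison, or highest in its gene. Other regions named (the remaining *Canx* regions and the first *Pdia3* region, and those with an unadjusted p under 0.05) were chosen after their values were seen. The reference given was NCBIM37 and the RefSeq tables GRCm38.p6, neither that of the files. Start-site and exon positions, region sequences, the gene lists over regions, genes with a like pattern, cell type markers and a check of *Smarcd1* were therefore not analysed here, and the lists were used for promoters only. Counts limit precision: the intervals cover the spread between 3 libraries a group.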

Additional observations from a re-analysis of the deposited data

Results flagged for a closer look

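Over the 6 libraries of the lines KD4 and KD6, 10 gene sums were examined (5 genes in 2 tables), and in 3 of them 1 library lay far from the others by Dixon's criterion for 6 samples (gap over range above 0.625). Chance gives about 1 such flag in 20 groups, and these sums share libraries. In each case the library was KD6 replicate 3. *Hsp90b1* had 540.8 CPM there in the KD table, with the others from 401 to 442, a gap of 0.705 of the range. *Pdia3* had 124.5 CPM in the KD table, with the others from 86.2 to 98.0 and a gap of 0.691. *Hsp90b1* had 756.9 CPM in the OE table, with the others from 548 to 624, and a gap of 0.633.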

How the results depend on the processing

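Members called numbered 0 in KD against Scr under each of 19 alternatives, in KD6 against KD4 under 16 and in OE against EV under 14, the fit with a replicate block included. For Scr against EV in the KD table, 10 members were called, and leaving out 1 library gave 5 to 9 (5 without EV 2 or without Scr 1, 6 without Scr 3). In the OE table, 7 were called, 2 to 8 with 1 library left out (2 without EV 2, 4 without Scr 1), and 13 with the replicate block, 12 higher and 1 lower. The cause was not tested. Over all regions, the block raised the calls of that comparison from 908 higher and 1105 lower to 2124 and 2327. The correlation of same-numbered libraries was not over 0.1 in each pair (0.0423, 0.162 and 0.238 for EV with Scr in the OE table, -0.0272, 0.295 and 0.298 for EV with OE, -0.158 to 0.244 for Scr with KD4), so the numbers were not taken as pairs. KD against Scr had 120 calls over all regions, 277 by DESeq2 and 244 with all 15 libraries in 1 fit, and KD6 against KD4 had 99, 251 and 228. Leaving out 1 library gave 8 (without Scr 3) to 170 and 17 (without KD6 2) to 101 such calls. For Scr against EV in the KD table, the 1921 calls over all regions fell to 366 without Scr 1 and rose to 2852 without EV 3. In the OE table the 2013 calls fell to 174 without Scr 1 and rose to 4028 without Scr 2. The median log2 ratio of Scr to EV over the 5 gene sums was 0.69, and 0.56 to 0.81 over 10 alternatives. Of 200 values for 20 gene ratios under alternatives, 193 moved by less than 1 SD between libraries and 7 by more. Depth limits the *Pdia3* region with 4 to 20 counts.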
